A study of Mus musculus with 7 samples.

Results

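Receptor summits were examined around 8 genes that regulate the cell cycle: Cdkn1a, Cdkn1b, Cdkn1c, Ccnd1, Ccnd3, Myc, Gadd45b and Btg2. The libraries came from chromatin immunoprecipitation followed by sequencing (ChIP-seq) of the glucocorticoid receptor, a transcription factor that binds DNA when it carries its steroid ligand, with an in-house antibody. The cells were cultured fibroblasts from mouse embryos of 14 to 17 days post coitum, used between passages 4 and 11, and were wild type or Klf15-/-, lacking the Krüppel-like zinc-finger factor KLF15. Wild-type cells with ethanol vehicle gave 1 library from pooled material, wild-type cells with dexamethasone gave 2, Klf15-/- cells with vehicle gave 2 and Klf15-/- cells with dexamethasone gave 2, and all treatments lasted 1 h. Dexamethasone is a synthetic glucocorticoid. The labels do not say which embryos, cultures or clones the libraries of a group came from, so their spread may be technical only. The genotype labels could not be checked, since binding at the Klf15 gene was not analysed here.

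A site was a run of summits of any of the 7 libraries with at most 200 bp between neighbours. It counted as near a gene when it lay within 100 kb of a fixed mm9 point close to the start of that gene. The points were at 29.23 Mb of chromosome 17 for Cdkn1a, 134.87 Mb of chromosome 6 for Cdkn1b, 150.65 Mb of chromosome 7 for Cdkn1c and 152.13 Mb of chromosome 7 for Ccnd1. Those of the other 4 genes were at 47.64 Mb of chromosome 17 (Ccnd3), 61.82 Mb of chromosome 15 (Myc), 80.39 Mb of chromosome 10 (Gadd45b) and 135.97 Mb of chromosome 1 (Btg2). This gave 53 of the 35316 sites of the genome, made of 146 summits. The points are rounded to 10 kb, so a distance from one is given along the chromosome, positive towards higher coordinates, and is not an exact distance from a transcription start. The 8 genes lay on the same chromosomes, and the pairs that share one in the same order, in RefSeq's GRCm38.p6 annotation.

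Progression from the resting phase into DNA synthesis is driven by D-type cyclins, which activate cyclin-dependent kinases, and is restrained by the Cip/Kip inhibitors that bind those kinases. Myc, a transcription factor induced by growth signals, promotes the same step, while Gadd45b and Btg2 belong to families of stress-induced genes that slow growth. Glucocorticoids are known to slow the proliferation of many cell types, and genes of all these groups have been described as glucocorticoid-responsive in one tissue or another. A receptor summit near a gene does not show that the gene responds, and no expression was measured here.

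Sites near 7 of the 8 genes were found, and none near Cdkn1c. Cdkn1a had 14 sites, Myc 11, Gadd45b 8, Btg2 6, Ccnd1 and Ccnd3 5 each, and Cdkn1b 4. In 4140 consecutive windows of 200 kb on the same 6 chromosomes the median was 1 site, the quartiles were 0 and 4, and 37.0% of windows had none. Windows with at least 14 sites made up 1.55% and those with at least 11 sites 4.11%. The map of sites shows that Cdkn1a and Ccnd3 had their highest-ranked sites in dexamethasone lists alone, whereas Myc had its highest-ranked sites in vehicle and dexamethasone lists alike.

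**Figure D1:**
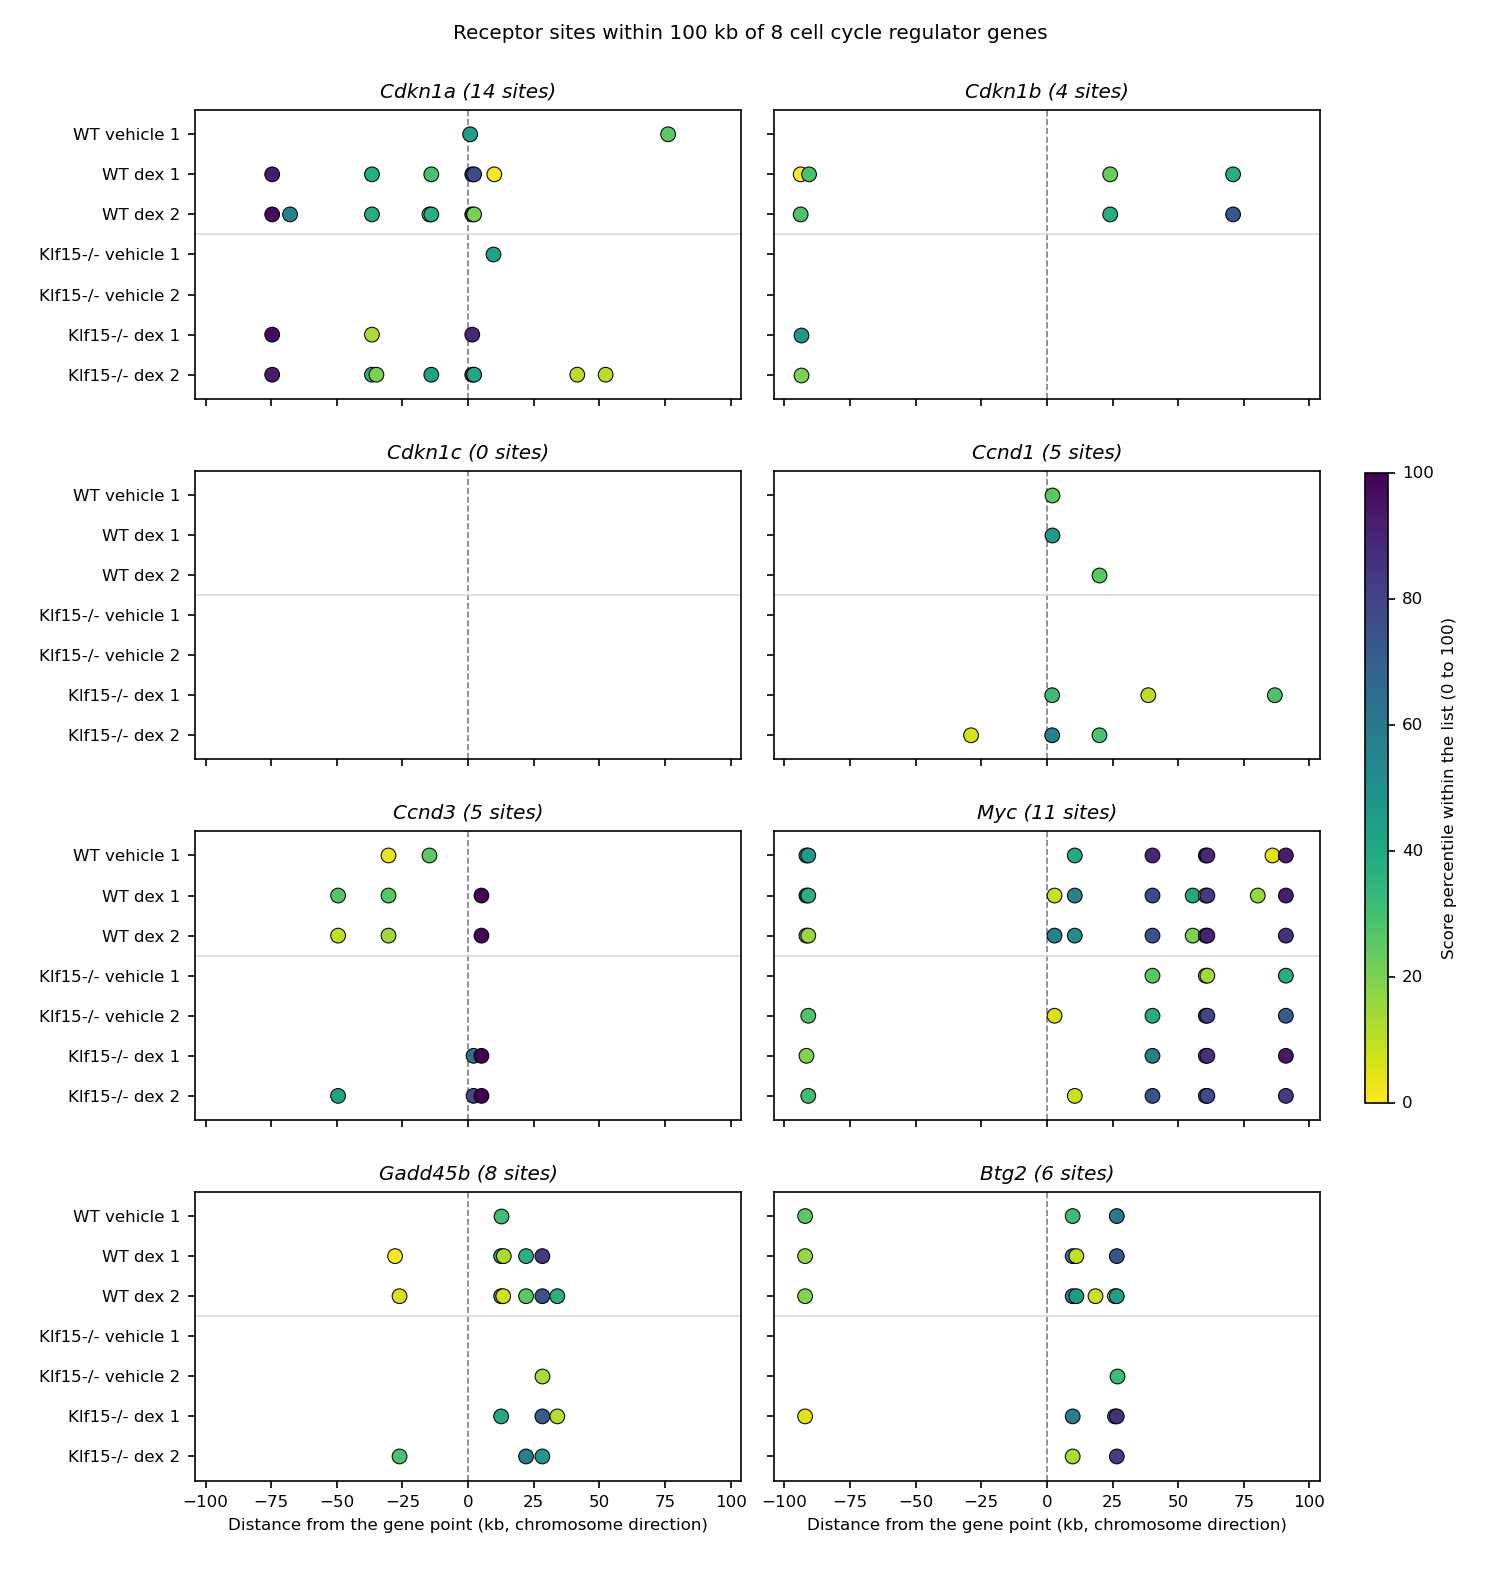
Sites near each of the 8 genes (panels), by distance from the gene point in kb (x axis) and by library (y axis, WT for wild type and dex for dexamethasone). Each point is a site held by that library, coloured by the percentile of its score within the list, and the 11 sites of Myc and 14 of Cdkn1a stand against 0 of Cdkn1c.

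The score is the authors' value for each summit, on a scale that is not stated. It was turned into a percentile, the share of the summits of the same list with a score at or below it, so 100 is the highest-scoring summit of its list. Percentiles rank sites within a list and are not levels of occupancy. Lists held 15628 and 16927 summits (wild type, dexamethasone), 19999 and 20169 (Klf15-/-, dexamethasone), 10034 (wild type, vehicle) and 7325 and 8088 (Klf15-/-, vehicle), and read depth is unknown from these files. The first Klf15-/- vehicle list stands apart, with 414 cases of adjacent summits closer than 200 bp, where no other list had more than 4. Without it, 52 sites remained near the 8 genes, 5 were held by all the other libraries, 19 had a vehicle summit in place of 20, and the counts of dexamethasone-only, genotype-only and all-dexamethasone sites given next were the same.

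Most of the sites that dexamethasone lists of both genotypes held, and vehicle lists did not, lay near Cdkn1a, which also had the most sites of any kind. A site was shared dexamethasone-only when all 4 dexamethasone libraries and no vehicle library held it. There were 5 such sites among the 53 (9.43%), against 7.85% of all sites of the genome. They were 3 of the 14 sites near Cdkn1a, 1 of the 5 near Ccnd3 and 1 of the 4 near Cdkn1b. Without the first Klf15-/- dexamethasone library, when the other alone stands for its group, there were 9 (17.6%, against 9.75% of all sites). All 4 sites held by all 7 libraries lay near Myc. They were 7.55% of the 53, against 6.22% of all sites and 6.49% of those on chromosome 15. In all, 12 of the 53 sites were held by all 4 dexamethasone libraries (22.6%, against 25.4% of all sites), and 7 of these 12 also had a vehicle summit, where 69.1% of such sites of the genome had one. A vehicle summit was found at 20 of the 53 sites (37.7%, against 45.8% of all sites). The shares of shared and of common sites thus lay near those of all sites, and the sites held by all 7 libraries were at Myc alone.

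**Figure D2:**
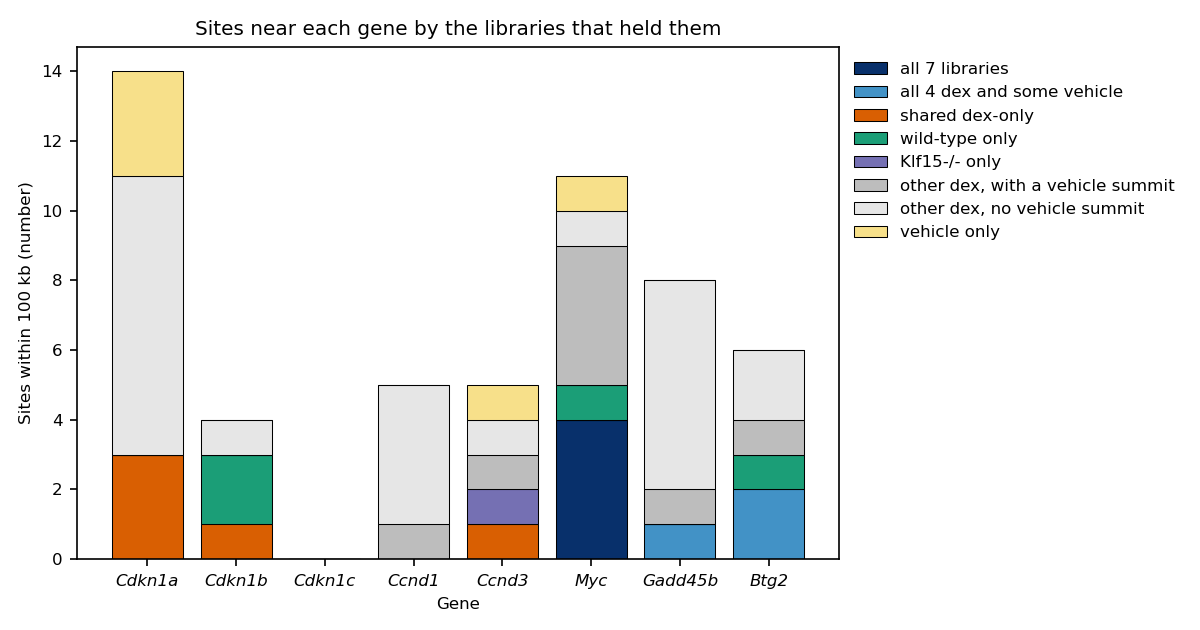
Number of sites within 100 kb of each gene (bars), split by the libraries that held them (colours, dex for dexamethasone). The 4 sites held by all 7 libraries are all at Myc, 3 of the 5 shared dexamethasone-only sites are at Cdkn1a, and Cdkn1c has no site.

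Among the Cip/Kip inhibitors, Cdkn1a had the most sites. It encodes an inhibitor induced by the tumour suppressor p53 and by differentiation signals, and its nearest protein-coding neighbours in GRCm38.p6 are Srsf3 and Rab44. The top site, on chromosome 17 from 29155352 to 29155411 and at -74.6 kb, stood at percentiles 93.1 and 97.3 in the wild-type dexamethasone lists. It stood at 97.5 and 92.0 in the lists of Klf15-/- and was in no vehicle list. The values of the genotypes overlapped. The site closest to the gene among the shared ones, from 29231609 to 29231661 at 1.6 kb, had percentiles 86.3 and 88.1 in wild type. In Klf15-/- it had 89.4 and 89.8. These were a little higher in Klf15-/-, without overlap, and the gap between the nearest values was smaller than that between the wild-type replicates. The lowest-ranked shared site of Cdkn1a, from 29193289 to 29193580 at -36.6 kb, was at 37.9 and 37.7 in wild type, and at 12.5 and 35.2 in Klf15-/-. Its summits were spread over 291 bp between lists, the widest of the 12 sites held by all dexamethasone libraries.

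Other sites near Cdkn1a were less repeatable. A site at 2.3 kb, 0.539 kb from the one at 1.6 kb, was held by both wild-type dexamethasone lists at percentiles 77.6 and 20.5 and by the second Klf15-/- dexamethasone list at 40.3. One at -14.0 kb was held by the same 3 lists at 29.0, 36.5 and 42.7. The vehicle lists had 3 summits near the gene, each alone in its site: 1 at 0.8 kb, on chromosome 17 at 29230812, at percentile 44.1 of the wild-type list, 1 at 76.2 kb of the same list, and 1 at 9.5 kb of the first Klf15-/- list. None of them lay in a site that a dexamethasone list held, and 9 of the 14 sites were in 1 list only.

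RefSeq's table gives 2 starts for Cdkn1a, and the 250 bases before each are shown because the site at 1.6 kb lies close to the gene's point. Capitals mark the GC box GGGCGG on either strand, a letter pattern recognised by Sp and Krüppel-like factors. These windows are GRCm38.p6, plus strand, and their coordinates cannot be set against the mm9 summits.
Cdkn1a first start, chr17:29090729-29090978: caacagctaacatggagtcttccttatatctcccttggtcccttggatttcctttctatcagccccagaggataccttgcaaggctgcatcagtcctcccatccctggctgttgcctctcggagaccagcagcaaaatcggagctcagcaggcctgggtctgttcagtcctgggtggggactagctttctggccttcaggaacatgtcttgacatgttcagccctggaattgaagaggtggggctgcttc
Cdkn1a second start, chr17:29093519-29093768: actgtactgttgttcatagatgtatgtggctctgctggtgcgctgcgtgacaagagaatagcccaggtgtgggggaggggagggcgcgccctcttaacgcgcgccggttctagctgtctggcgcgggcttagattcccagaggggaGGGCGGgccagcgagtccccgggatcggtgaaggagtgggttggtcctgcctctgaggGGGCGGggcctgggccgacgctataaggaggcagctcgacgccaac
The window of the first start held no GC box and that of the second held 2. Neither held the half-site AGAACA of the glucocorticoid response element on either strand, nor the full element, AGAACA and TGTTCT with 3 bases of any kind between them, with up to 2 mismatches in the fixed letters. The table held 7 such windows for 5 of the 8 genes (Cdkn1a, Cdkn1b, Ccnd3, Gadd45b and Btg2), and none of the 7 held either pattern. Over the table's 32851 windows of this length 16.1% held the half-site and 1.56% the full element, so matches were uncommon in general. A GC box was in 6 of the 7 and in 32.7% of all windows.

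Cdkn1b, which encodes the inhibitor that accumulates in quiescent cells, had few and low-ranked sites. The site from 134776130 to 134776219 of chromosome 6, at -93.8 kb, was held by all 4 dexamethasone lists and no vehicle list. Wild-type percentiles were 0.6 and 28.7, Klf15-/- percentiles 47.6 and 20.1, so that replicates differed as much as genotypes. Closer to the gene, sites were held by wild-type dexamethasone lists alone. The one from 134893953 to 134894147, at 24.1 kb, had percentiles 22.9 and 36.9, and the one from 134940847 to 134940854, at 70.9 kb, had 38.2 and 73.1. The summits of the latter were 7 bp apart in the replicates. No vehicle list had a summit near Cdkn1b.

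Cdkn1c, an imprinted gene whose product is the third Cip/Kip inhibitor, had no summit of any library within 100 kb. The nearest one, of the second Klf15-/- dexamethasone list alone, was 106.9 kb below the point, and the nearest above it was 306 kb away. Windows of 200 kb without a site were common on chromosome 7 (48.1%), so the empty window does not set the gene apart.

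The D-type cyclins differed from each other. Ccnd3, which encodes cyclin D3, had the highest-ranked of the 53 sites. Its protein-coding neighbours in GRCm38.p6 are Taf8 and Bysl. This site, on chromosome 17 from 47645077 to 47645112 at 5.1 kb, was the 31st and 63rd highest-scoring summit of the wild-type dexamethasone lists. It was the 24th and 37th of the Klf15-/- ones, and its percentiles were 99.8, 99.6, 99.9 and 99.8 in that order. No vehicle list held it, and its 4 summits fell within 35 bp, the narrowest spread of the 12 sites held by all dexamethasone libraries. Those 12 had a median spread of 58.5 bp, against 78 bp over the 8977 such sites of the genome.

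Beside it lay the only Klf15-/- only site of the set. It ran from 47642026 to 47642102, at 2.1 kb and 2.975 kb from the first, at percentiles 63.0 and 77.2 in the Klf15-/- dexamethasone lists, and no other list held it. A site from 47609585 to 47609749, at -30.3 kb, showed the reverse: wild-type percentiles of 25.9 and 15.1 after dexamethasone, 3.3 in the wild-type vehicle list and no summit in Klf15-/-. Another at -49.5 kb was held by both wild-type lists (27.0 and 9.0) and the second Klf15-/- list (40.7) after dexamethasone. The site at 5.1 kb thus ranked high in both genotypes, and the other 3 lay lower and were not in all 4 dexamethasone lists.

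The table gives Ccnd3 2 starts, shown here because this gene had the highest-ranked site, with the same marking of GC boxes. Both windows are GRCm38.p6, plus strand.
Ccnd3 first start, chr17:47504801-47505050: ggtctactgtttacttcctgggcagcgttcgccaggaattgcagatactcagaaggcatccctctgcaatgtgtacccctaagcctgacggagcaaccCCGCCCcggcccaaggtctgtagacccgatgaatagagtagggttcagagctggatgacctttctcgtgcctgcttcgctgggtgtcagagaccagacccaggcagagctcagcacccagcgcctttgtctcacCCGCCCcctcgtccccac
Ccnd3 second start, chr17:47593217-47593466: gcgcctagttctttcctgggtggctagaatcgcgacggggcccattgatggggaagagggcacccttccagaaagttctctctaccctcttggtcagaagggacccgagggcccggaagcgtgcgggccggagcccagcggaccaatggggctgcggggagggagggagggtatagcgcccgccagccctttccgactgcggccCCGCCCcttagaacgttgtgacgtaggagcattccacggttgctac
The first window held 2 GC boxes and the second held 1. The site at 5.1 kb could not be placed relative to either start without an mm9 annotation.

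Ccnd1, which encodes cyclin D1, a target of mitogenic signalling, had no site above percentile 57.1 in any list. The one nearest to its point, on chromosome 7 from 152131965 to 152132077 at 2.0 kb, had percentile 25.1 in the wild-type vehicle list and 46.0 in the first wild-type dexamethasone list, and was absent from the second. In Klf15-/- it was in both dexamethasone lists, at 31.9 and 57.1, and in no vehicle list. The other 4 sites were held by 1 or 2 dexamethasone lists at percentiles of at most 28.4. Ccnd1 was the only gene with more summits in both Klf15-/- dexamethasone lists (3 and 3) than in the wild-type ones (1 and 1).

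Myc had sites in every library, mostly at positive distances, the direction in which the non-coding gene Pvt1 follows it in GRCm38.p6. The top site, from 61910945 to 61911111 of chromosome 15 at 91.0 kb, had percentiles 92.1 (wild type, vehicle), 92.5 and 86.3 (wild type, dexamethasone), 37.6 and 71.4 (Klf15-/-, vehicle) and 93.5 and 83.5 (Klf15-/-, dexamethasone). It ranked high in all lists except the first Klf15-/- vehicle list, the one that stands apart. The site from 61880983 to 61881258, at 61.1 kb, had 88.3 in wild-type vehicle, 82.8 and 90.4 in wild-type dexamethasone, 14.3 and 79.8 in Klf15-/- vehicle and 86.7 and 77.4 in Klf15-/- dexamethasone lists. The first Klf15-/- vehicle list was again the lowest.

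The other sites of Myc held by all 7 libraries ranked below these in most dexamethasone lists. The site from 61860065 to 61860244, at 40.2 kb, had percentile 89.7 in the wild-type vehicle list, 77.5 and 75.5 in the wild-type dexamethasone lists, 26.1 and 38.9 in the Klf15-/- vehicle lists and 57.4 and 74.9 in the Klf15-/- dexamethasone lists. Relative to vehicle it thus stood lower after dexamethasone in wild type and higher in Klf15-/-, in lists of unequal length. The site from 61880483 to 61880562, at 60.5 kb and 0.421 kb from the one at 61.1 kb, had 93.3 in wild-type vehicle and 18.2 and 69.8 in wild-type dexamethasone. In Klf15-/- the vehicle lists gave 11.4 and 73.9, the dexamethasone lists 53.4 and 49.3, so replicates were far apart in 2 of the groups. In a list that grows after dexamethasone a site changes rank when others are added, so these ranks show no change of occupancy.

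Of the 7 other sites of Myc, 5 were in both wild-type dexamethasone lists and none was in both Klf15-/- ones. The site nearest to the point, from 61822895 to 61822981 at 2.9 kb, had wild-type percentiles of 8.1 and 56.0 after dexamethasone, 5.6 in the second Klf15-/- vehicle list, and no Klf15-/- dexamethasone summit. The summit at 61875525, at 55.5 kb, fell on the same base in both wild-type dexamethasone lists, at percentiles 40.4 and 19.8, and was in no other list. The sites at 10.6, -90.9 and -91.6 kb were in both wild-type dexamethasone lists, the wild-type vehicle list and 1 Klf15-/- dexamethasone list each, and the one at -90.9 kb also in the second Klf15-/- vehicle list.

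Of the stress-induced genes, Gadd45b, whose protein-coding neighbours in GRCm38.p6 are Lmnb2 and Gng7, had 8 sites, none further than 34.0 kb from its point. The highest-ranked one, from 80418194 to 80418318 of chromosome 10 at 28.3 kb, stood after dexamethasone at percentiles 83.9 and 74.3 (wild type) and 71.7 and 46.0 (Klf15-/-). It also had a summit in the second Klf15-/- vehicle list, at 13.5, and none in the wild-type vehicle list. The wild-type values lay above those of Klf15-/-, by less than the spread between the Klf15-/- replicates. A site at 12.6 kb was in the wild-type vehicle list (30.8), both wild-type dexamethasone lists (36.6 and 30.1) and the first Klf15-/- dexamethasone list (39.9). The remaining 6 were in at most 3 lists.

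Btg2, an antiproliferative gene induced by p53 and lying between Fmod and Chit1 in GRCm38.p6, had 2 sites held by all 4 dexamethasone lists, and both had vehicle summits. The site from 135996599 to 135996685 of chromosome 1, at 26.6 kb, reached percentiles 73.7 and 44.3 (wild type) and 86.0 and 82.2 (Klf15-/-) after dexamethasone, against 59.0 in wild-type vehicle and 31.5 in the second Klf15-/- vehicle list. The genotypes did not overlap here, with Klf15-/- higher, but the wild-type replicates were further apart than the genotypes. The site from 135979743 to 135979831, at 9.8 kb, had 60.9 and 57.7 in wild type, 58.7 and 12.9 in Klf15-/- and 30.7 in wild-type vehicle. Next to it, from 135981142 to 135981233 at 11.2 kb, a site was held by the wild-type dexamethasone lists alone, at 9.2 and 45.0.

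**Figure D3:**
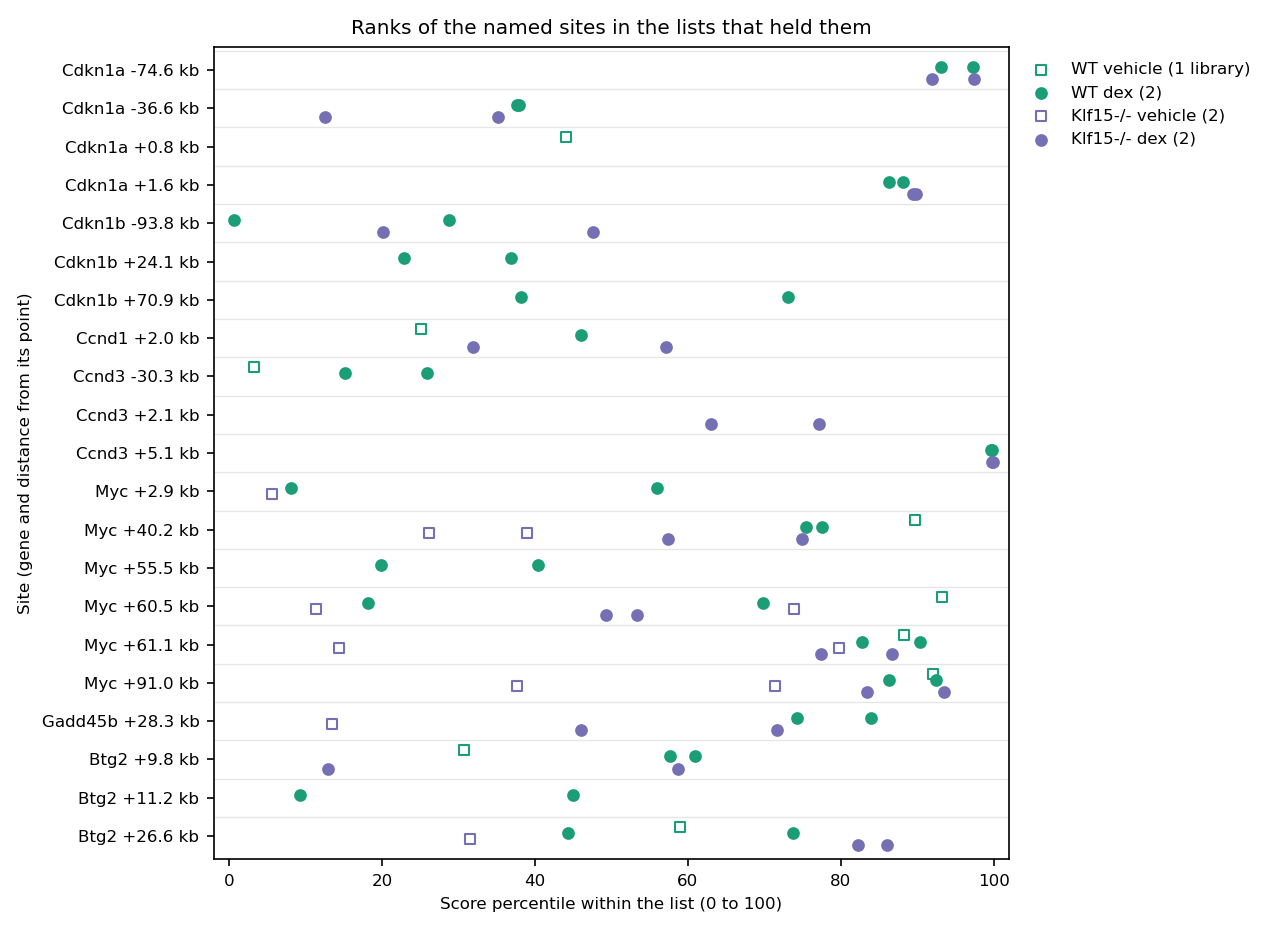
Score percentile within the list (x axis, 0 to 100) of the 21 sites described by position (y axis, gene and distance from its point), one point per library that held the site, filled circles for dexamethasone and open squares for vehicle. The site of Ccnd3 at 5.1 kb lies above 99 in all 4 dexamethasone lists, and only the sites of Myc at 40.2, 60.5, 61.1 and 91.0 kb have points of all 7 libraries.

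Dexamethasone lists held more summits near most of these genes in both genotypes, but they were also longer, and relative to list length the genes went different ways. The wild-type vehicle list had 17 summits near the 8 genes and the wild-type dexamethasone lists 33 and 35 (34.0 ± 1.41, SD, n = 2), a ratio of 2.00. The Klf15-/- vehicle lists had 6 and 8 (7.0 ± 1.41, n = 2) and the Klf15-/- dexamethasone lists 21 and 26 (23.5 ± 3.54, n = 2), a ratio of 3.36. Treatments did not overlap in either genotype. Per gene, both wild-type dexamethasone lists exceeded the vehicle list at 6 of the 8 genes, as did 45.2% of windows of 200 kb with a summit of those lists. The exceptions were Ccnd1 and Cdkn1c. In Klf15-/- both dexamethasone lists exceeded both vehicle lists at 6 of the 8, against 55.5% of windows, and the exceptions were Myc and Cdkn1c. Cdkn1c had no summit and so has no counterpart among these windows. The windows of the other genes held more sites than most, which the window shares do not allow for. Cdkn1a went from 2 summits to 6 and 7 in wild type and from 1 and 0 to 3 and 8 in Klf15-/-. Myc went from 8 to 10 and 9 in wild type, and from 5 and 6 to 5 and 6 in Klf15-/-.

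Per 10000 summits of a list, both wild-type dexamethasone libraries lay above the vehicle library at 3 of the 8 genes (Cdkn1a, Cdkn1b and Gadd45b) and below it at 3 (Ccnd1, Ccnd3 and Myc), and Btg2 overlapped. In Klf15-/- they lay above both vehicle libraries at 5 (Cdkn1a, Cdkn1b, Ccnd1, Ccnd3 and Gadd45b) and below both at Myc alone, and Btg2 overlapped again. The share of all windows that went each way relative to list length was not computed. These counts therefore do not show whether the genes differ from other windows. Myc was lower in both genotypes. It went from 7.97 per 10000 summits to 6.40 and 5.32 in wild type, a difference of -2.12 between means. From 6.83 and 7.42 it went to 2.50 and 2.97 in Klf15-/-, a difference of -4.38. Cdkn1a went from 1.99 to 3.84 and 4.14 in wild type, and its means differed by 2.05 in Klf15-/-, where the dexamethasone replicates were far apart.

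Over the 8 genes together, shares of the list differed less than numbers did. As a share, the wild-type vehicle library had 0.169% of its summits near the 8 genes (exact 95% binomial interval 0.0987 to 0.271%) and the dexamethasone libraries 0.211% (0.145 to 0.296%) and 0.207% (0.144 to 0.287%). The Klf15-/- vehicle libraries had 0.0819% (0.0301 to 0.178%) and 0.0989% (0.0427 to 0.195%), and the dexamethasone libraries 0.105% (0.0650 to 0.160%) and 0.129% (0.0842 to 0.189%). Dexamethasone shares were higher by factors of 1.23 in wild type and 1.29 in Klf15-/-, and the intervals, which cover counting error only, overlapped. In lists of equal length the wild-type difference was gone, with 0.150% for vehicle and 0.150% for dexamethasone (factor 1.00), and the Klf15-/- factor was 1.15. The factors were 1.54 and 2.07 within 50 kb, and 1.54 and 2.87 among summits above the median score. The smallest two-sided p of an exact permutation test is 0.333 for 2 libraries against 2, and 0.0571 for all 3 vehicle against all 4 dexamethasone libraries, so none was made.

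**Figure D4:**
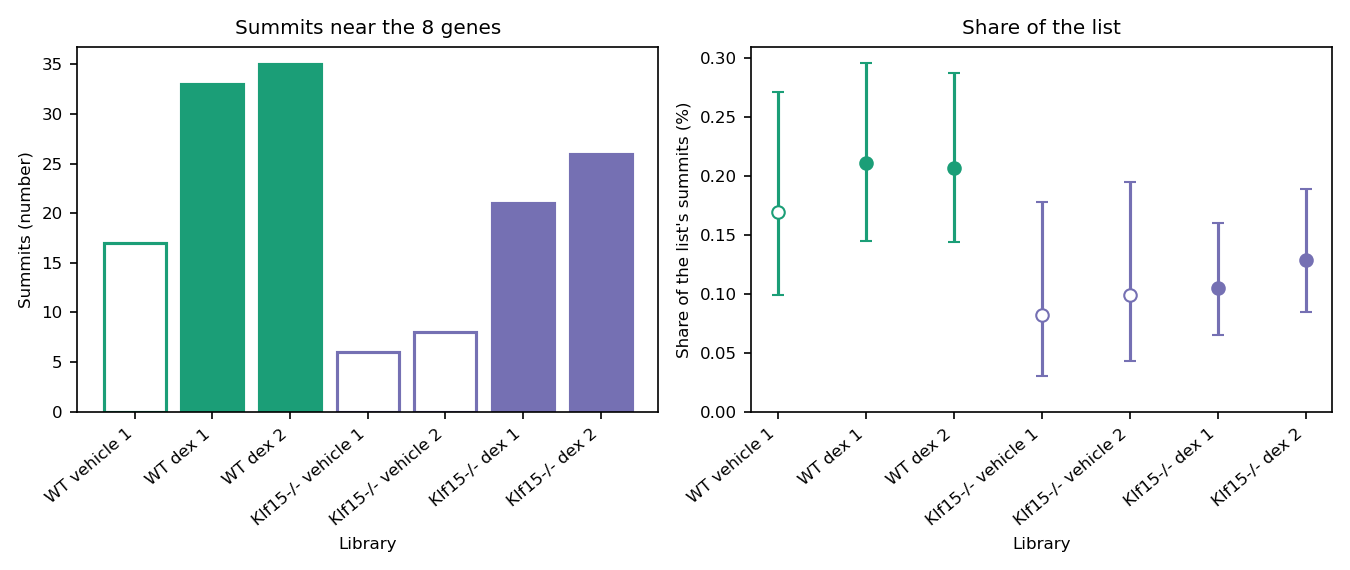
Summits within 100 kb of the 8 genes in each library (x axis) as a number (left) and as a percentage of the list with its exact 95% binomial interval (right), with green for wild type, purple for Klf15-/-, filled for dexamethasone and open for vehicle. The wild-type dexamethasone libraries have 33 and 35 summits and the Klf15-/- ones 21 and 26.

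Fewer summits lay near these genes in Klf15-/- than in wild-type cells after dexamethasone, although the Klf15-/- lists were longer. With vehicle the number and the share were also lower in Klf15-/-, but there the Klf15-/- lists were shorter. After dexamethasone the mean share was 0.117% ± 0.0169 (SD, n = 2) in Klf15-/- against 0.209% ± 0.00310 (n = 2) in wild type, a ratio of 0.560 with no overlap between libraries. With vehicle the means were 0.0904% and 0.169%, a ratio of 0.534, with a single wild-type library. The binomial intervals of the libraries overlapped. The ratio was 0.577 within 50 kb, 0.693 among summits above the median score of their list, 0.682 in lists of equal length and 0.775 within 200 kb. Both wild-type lists had more summits than both Klf15-/- lists at 3 of the 8 genes, where 8.23% of the windows of 200 kb with a dexamethasone summit did: Cdkn1b (4 and 3 against 1 and 1), Myc (10 and 9 against 5 and 6) and Gadd45b (5 and 6 against 3 and 3). The reverse held at Ccnd1 alone, against 24.1% of windows. Windows near these genes, Cdkn1c aside, held more sites than most, which the window shares do not allow for. Cdkn1a (6 and 7 against 3 and 8), Ccnd3 (3 and 3 against 2 and 3) and Btg2 (4 and 6 against 4 and 2) overlapped.

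The chromosomes of these genes also differed between genotypes. Klf15-/- dexamethasone lists had a smaller share of their summits than wild-type ones on chromosome 10 (ratio 0.818), chromosome 15 (0.841) and chromosome 17 (0.865). Their share was similar on chromosome 6 (1.01) and larger on chromosomes 1 (1.11) and 7 (1.15). Over the 6 chromosomes together the ratio was 0.955. The part of these differences in the counts near the genes was not tested. The ratio near the genes was 0.560 within 100 kb and 0.775 within 200 kb of the points.

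Few sites met the strict rule for a genotype-only site, a summit in each dexamethasone replicate of that genotype and in no other list. A further 20 of the 53 sites were in 1 list only, and so also in a single genotype. Both wild-type dexamethasone libraries held 27 of the 53 sites (50.9%, against 34.2% of all sites), and 14 of these had a vehicle summit (61.5% of such sites in the genome did). Both Klf15-/- dexamethasone libraries held 14 of the 53 (26.4%, against 42.1% of all sites), and 8 of these had a vehicle summit (56.8% in the genome). Dexamethasone-only sites of wild type, held by both libraries with no vehicle summit, numbered 13 (24.5%, against 13.2% of all sites), and those of Klf15-/- numbered 6 (11.3%, against 18.2%). A Klf15-/- dexamethasone summit was in 9 of the 13. The other 4 were wild-type only (7.55%, against 2.93%), at Cdkn1b, Myc and Btg2, and 1 site was Klf15-/- only (1.89%, against 6.55%), at Ccnd3. With vehicle summits allowed, 6 sites had a summit of each wild-type dexamethasone library and none of the Klf15-/- ones (11.3%, against 4.39%) and 1 by the reverse (1.89%, against 9.78%). Within 200 kb of the points the order of the counts turned, to 5 wild-type only against 10 Klf15-/- only sites. Dexamethasone-only sites then numbered 20 (wild type) and 22 (Klf15-/-). The genotype-only shares were 4.72% (wild type, against 2.93% of all sites) and 9.43% (Klf15-/-, against 6.55%). The dexamethasone-only shares were 18.9% (against 13.2%) and 20.8% (against 18.2%). Both genotypes thus lay above the shares of all sites, whereas within 100 kb Klf15-/- lay below them. In lists of equal length both genotype-only classes were empty among 20 sites, where they held 2.55% (wild type) and 2.17% (Klf15-/-) of all sites. There, 3 sites of each genotype were dexamethasone-only (15.0%, against 9.35% for wild type and 9.06% for Klf15-/-), so both lay above all sites.

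The counts of genotype classes also depended on single libraries, since a group of 2 left with 1 needs a summit in that library alone. Without the first Klf15-/- dexamethasone library there were 16 Klf15-/- dexamethasone-only sites (31.4%, against 32.7% of all sites under the same rule) and 5 Klf15-/- only sites (9.80%, against 16.8%), beside 13 wild-type dexamethasone-only sites (25.5%, against 14.3%). Without the second there were 10 (20.4%, against 32.5%) and 3 (6.12%, against 16.3%), beside 8 wild-type only sites (16.3%, against 4.49%). Without the first wild-type dexamethasone library there were 21 wild-type dexamethasone-only sites (42.9%, against 24.2%) and 8 wild-type only sites (16.3%, against 8.88%). Without the second there were 9 wild-type only sites (18.4%, against 7.57%). In each of these settings the wild-type share near the genes was above that of all sites and the Klf15-/- share below it.

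Replicates shared more of these sites in wild type than in Klf15-/-. The wild-type dexamethasone libraries both held 27 of the 41 sites that either held, a Jaccard index (shared sites over sites of either) of 0.659, where all sites gave 0.593. The Klf15-/- dexamethasone libraries shared 14 of 33, an index of 0.424, where all sites gave 0.589. The 4 pairs across genotypes lay between 0.421 and 0.488, so the index of the Klf15-/- replicates lay within the range of the pairs across genotypes. Sites in 1 list numbered 20 of 53 (37.7%, against 38.7% of all sites), and their percentiles ran from 0.5 to 54.6 with a median of 14.5. Sites without any dexamethasone summit numbered 5 (9.43%, against 12.7%). They were 3 near Cdkn1a, 1 near Ccnd3 and 1 near Myc, each in 1 vehicle list. The median percentile of the summits near the 8 genes was 36.6 and 36.5 in the wild-type and 53.4 and 41.7 in the Klf15-/- dexamethasone lists.

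The 32 sites not described by position had percentiles from 0.5 to 77.6 with a median of 26.7. In the last 10 kb inside the distance of 100 kb lay 6 sites of Cdkn1b, Myc and Btg2, at 90.6 to 93.8 kb and held by 1 to 7 lists. In the 10 kb outside lay 5 sites, next to Cdkn1b, Cdkn1c and Ccnd1, at 101.4 to 106.9 kb and held by 1 to 3 lists. The percentile of 25.1 at 4 sites of the wild-type vehicle list comes from a tied score.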

How the data were processed

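The deposited files hold receptor peak summits, one file per library. Every summit has its chromosome, its 1-bp position and the score that the authors' peak calling gave it. Per the submitters' processing notes reads were handled with CASAVA 1.4, Bowtie2 2 and SAMtools on mm9. The peak caller with its control and threshold is not given in the sources used here, and the scale of the score is unknown. Per the labels' protocols, cells were fixed with 1% formaldehyde for 5 minutes and sequenced with single reads of 50 bp.

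Positions were counted from 1. Summits were linked at a gap of at most 200 bp, a library held a site with at least 1 summit, and sites were taken within 100 kb of the points. Neither a model nor a p-value was computed, since groups have 1 or 2 libraries and sites are not replicates. The genes, their points, the classes of sites and the rule for sites given by position were chosen with earlier results of these data known. That rule took the site of each gene with the highest mean percentile over the dexamethasone lists (0 where absent), all sites held by all 4 dexamethasone libraries, those held by both of one genotype and neither of the other, and the site nearest to a point within 5 kb. A few more sites and the GC box were chosen after values were seen. Gene order and promoter windows came from RefSeq's GRCm38.p6 tables. Other cell cycle genes, position relative to transcripts and site sequences were not analysed here. Alternatives were linkage gaps of 100 and 500 bp, distances of 50 and 200 kb, summits above the median score of their list, the 7325 top summits of each list, vehicle lists of the same genotype and each library left out. On simulated lists, 100% of 500 planted sites per class were found in the shared, all-library and genotype-only classes. The planted sites lay far apart, with summits close together and none missing. This outcome therefore checked the code only, and not how spread, neighbouring or missing summits of real lists are classed. Scripts ran in Python 3.11.15 with pandas 2.3.3, numpy 2.4.6 and scipy 1.17.1, and figures were drawn with matplotlib 3.10.9.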

Additional observations from a re-analysis of the deposited data

Results flagged for a closer look

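For 2 genes, the share of a list near the gene was lower after dexamethasone in both wild-type libraries and higher in both Klf15-/- libraries. Near Ccnd1, summits per 10000 of a list changed by -0.381 in wild type and by 1.49 in Klf15-/- (dexamethasone minus vehicle). The wild-type lists had 1 summit each, in lists of unequal length, and the Klf15-/- lists went from 0 and 0 to 3 and 3. Near Ccnd3 the changes were -0.147 in wild type and 1.24 in Klf15-/-. Wild-type summits numbered 2 in the vehicle list and 3 in each dexamethasone list, so the number rose while the share fell. These differences were not tested, and the wild-type vehicle library has no replicate. How many other windows show the same opposite directions was not computed.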

How the results depend on the processing

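Each group had 1 or 2 libraries and the wild-type vehicle group 1, and depth and the authors' threshold are unknown, so an absent summit may be one below the threshold. Of 361 recomputed values over classes, genes and sites, 262 stayed within the spread or within 1.5 times and 99 moved. Numbers of lists per site made up 126 of these values (94 stayed, 32 moved). A changed distance from the points cannot alter such a number, so part of them stayed by construction. Among the 131 class counts and shares, 87 stayed and 44 moved. The linkage gaps and the choice of vehicle lists changed some class counts, but all stayed within 1.5 times. With gaps of 100 and 500 bp, 3 sites in place of 4 were held by all 7 libraries. Their shares were 5.00% (against 4.69% of all sites) and 5.88% (against 6.91%). Within 50 kb, 7 sites were held by all 4 dexamethasone libraries (19.4%, against 25.4% of all sites) and 3 were shared dexamethasone-only (8.33%, against 7.85%). Wild-type only sites numbered 2 (5.56%, against 2.93%), and 1 site was held by all 7 (2.78%, against 6.22%). Shares of a list near the genes were then 0.0897% (wild type, vehicle), 0.138% (wild type, dexamethasone), 0.0384% (Klf15-/-, vehicle) and 0.0796% (Klf15-/-, dexamethasone). Within 200 kb there were 106 sites, 26 held by all 4 dexamethasone libraries (24.5%, against 25.4% of all sites). Dexamethasone-only sites numbered 20 in wild type (18.9%, against 13.2%), 22 in Klf15-/- (20.8%, against 18.2%) and 11 shared (10.4%, against 7.85%). Klf15-/- only sites numbered 10 (9.43%, against 6.55%). Shares of a list were 0.289%, 0.360%, 0.167% and 0.279% in the same order of groups. Among summits above the median score there were 19 sites, 6 held by all 4 dexamethasone libraries (31.6%, against 26.2% of all such sites). Dexamethasone-only sites numbered 6 in wild type (31.6%, against 15.1%), 4 in Klf15-/- (21.1%, against 20.6%) and 3 shared (15.8%, against 9.77%). There was 1 wild-type only site (5.26%, against 3.20%), and 0 were held by all 7 (against 5.22%). Shares of a list were 0.154% in wild-type dexamethasone and 0.0371% in Klf15-/- vehicle lists. In lists of 7325 summits there were 20 sites, 5 held by all 4 dexamethasone libraries, 3 wild-type, 3 Klf15-/- and 3 shared dexamethasone-only, 0 wild-type only, 0 Klf15-/- only and 2 held by all 7, and the wild-type shares were 0.150% with dexamethasone and 0.150% with vehicle. These settings change the window or the number of summits by construction.

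With each library left out in turn, sites ranged from 49 to 53 and those held by all 4 dexamethasone libraries, or all left, from 11 to 18. Wild-type dexamethasone-only sites ranged from 13 to 21, Klf15-/- ones from 5 to 16, shared ones from 4 to 9, wild-type only sites from 4 to 9, Klf15-/- only sites from 1 to 5 and those held by all libraries left from 4 to 5. The shares of these classes among all sites moved too, from 14.3 to 24.2% for wild-type and from 18.9 to 32.7% for Klf15-/- dexamethasone-only sites. They ranged from 8.70 to 12.5% for shared, 3.07 to 8.88% for wild-type only and 7.24 to 16.8% for Klf15-/- only sites. For sites held by all libraries left they ranged from 6.66 to 10.7%, and for those held by all dexamethasone libraries left they reached 30.6%. The ranges of counts alone thus do not set these genes apart from all sites. Shares of a list near the genes ranged from 0.207 to 0.211% (wild type, dexamethasone), 0.0819 to 0.0989% (Klf15-/-, vehicle) and 0.105 to 0.129% (Klf15-/-, dexamethasone). No paired analysis was possible because the results are counts, shares and ranks that come from no test.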
